A study of Drosophila melanogaster with 18 samples.

Results

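Whole w1118 flies fed vehicle to day 2 gave 6 of the 18 RNA libraries of the series. The names of 3 of these libraries carry a hyphen (D2Vh-1, D2Vh-2 and D2Vh-3) and the names of the other 3 do not (D2Vh1, D2Vh2 and D2Vh3). The labels number them as replicates 1 to 3 and 4 to 6 of 1 vehicle group and do not say what the hyphen marks, so no condition was given to either name series. The libraries were chosen by name alone, and the comparison is 3 unhyphenated against 3 hyphenated libraries.

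All flies were of the genotype w1118 and were kept at 24 °C on 10% sugar/yeast food. The other 12 libraries, 3 of each name series, come from day 0 flies and from day 2 flies that ate 1 µM cycloheximide (CHX), a blocker of protein synthesis, mixed into the food. The vehicle was water, as the study's methods give it for CHX-fed flies. The sex of the flies is not given for the libraries, and the methods give a number of flies per RNA extraction for qRT-PCR without tying it to sequencing. The labels do not say that the libraries of a series came from separate cultures, and the study's general statement on repeats in separate fly cohorts is not tied to these libraries, so the p-values measure the spread between libraries, which may be technical. The data are raw counts per feature, with totals of 21495631 to 27217129 in the vehicle libraries.

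Several of the genes described below belong to systems that insects use against chemicals and food shortage. Glutathione S-transferases join glutathione to reactive compounds, cytochrome P450 enzymes oxidise them, and UDP-glycosyltransferases attach a sugar that makes them easier to excrete. When amino acids or insulin run low, the transcription factors ATF4 and FOXO raise genes that slow translation, mobilise fat and remake amino acids. The fly gut secretes serine proteases, maltases and lipases, and peptidoglycan recognition proteins (PGRPs) detect or cut the cell walls of bacteria.

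Levels are given as CPM, counts scaled to a common library total, on the TMM scale of all 18 libraries, in the order D2Vh-1, D2Vh-2, D2Vh-3 for the hyphenated and D2Vh1, D2Vh2, D2Vh3 for the unhyphenated series. Fold changes are log2 values, unhyphenated over hyphenated, with the standard error (SE) of edgeR's quasi-likelihood fit. A gene is called higher or lower where the Benjamini-Hochberg adjusted p of that test was under 0.05.

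Of 10406 features tested in the vehicle libraries, 212 were called, which is 2.04% of those tested. In the unhyphenated series 169 of them were higher (1.62%) and 43 were lower (0.413%), and 118 and 27 of these differed by more than 2-fold. All 212 are genes. The called counts of the gene lists below are to be set beside these shares of all features. In each of the 212 the libraries of one series lay entirely above those of the other, a state that 8.6% of all features tested showed with the unhyphenated series above and 10.7% with it below. Over all features tested the log2 fold changes had a median of 0.0024, and 1296 features had an unadjusted p under 0.05. On the first principal component of the 6 libraries, with 45.2% of the variance, the hyphenated libraries lay from -24.7 to -11.3 and the unhyphenated ones from 14.7 to 25.3.

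**Figure D1:**
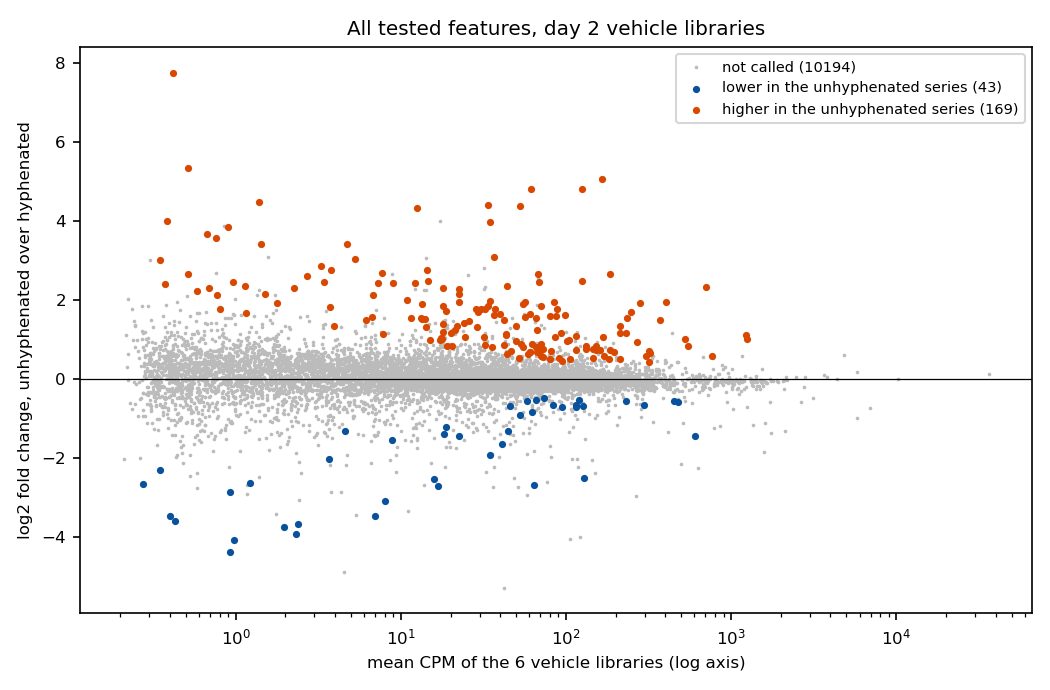
Log2 fold change (unhyphenated over hyphenated) against mean CPM of the 6 vehicle libraries (log axis), 1 point per feature. The 169 genes called higher are orange, the 43 called lower are blue, and the features not called are grey; the largest folds among genes of at least 20 CPM are 5.07 upward and -2.71 downward.

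The number of called genes depended on single libraries. Without D2Vh-2 it was 58, without D2Vh2 76, without D2Vh1 104, without D2Vh3 116 and without D2Vh-1 343, against 231 without D2Vh-3. Of the genes named in this text 86 were called, and 54 of these lost the call without D2Vh-2, 53 without D2Vh2, 40 without D2Vh1, 33 without D2Vh3, 11 without D2Vh-3 and 8 without D2Vh-1. The call held with each of the 6 libraries left out in turn for 26 of them: CG16898, Cyp4e3, GstE1, GstD2, GstD3, GstD5, GstE7, lncRNA:CR44138, CG2065, CG16758, CG5966, Ugt35C1, Cyp309a1, Nmdmc, aay, MtnA, Ets21C, Pepck2, ImpL2, Lip4, InR, ref(2)P, Drat and Mal-B2, which were higher, and Obp99a and Acbp3, which were lower. No named gene that was called changed sign in any of these fits.

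Glutathione S-transferases were called in 1 direction, higher in the unhyphenated vehicle libraries. Of 36 members 11 were higher and 0 lower (30.6% called, beside 2.04% of all features), with a median log2 fold change of 0.24 over the family. With another scaling 11 to 12 members were higher, and 7 to 12 with 1 library left out. The 11 were GstE1, GstE3, GstE7, GstE8, GstD1, GstD2, GstD3, GstD4, GstD5, GstD9 and GstT4.

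GstE1 (FBgn0034335, chromosome 2R, 18398393 to 18399223) had 5.32, 4.08 and 3.68 CPM in the hyphenated libraries and 96.8, 113 and 147 CPM in the unhyphenated ones. The series did not overlap, and the log2 fold change was 4.79 (SE 0.22, adjusted p = 0.000101 from edgeR). At day 0 the same gene ran from 10.3 to 16.1 CPM and with CHX from 8.52 to 16.6 CPM, so the hyphenated vehicle libraries lay below all other libraries and the unhyphenated ones above them. GstE1 overlaps GstE10 on the opposite strand, and GstE10 itself was not called (-0.16, adjusted p = 0.88 from edgeR).

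GstD1 (FBgn0001149, 3R, 12367817 to 12369268), the most abundant of the 11, had 145, 119 and 248 CPM against 535, 633 and 744 CPM. All unhyphenated libraries were above all hyphenated ones, with a log2 fold change of 1.94 (SE 0.26, adjusted p = 0.013 from edgeR), and D2Vh-3 was the highest of its series. GstD2 had 4.18, 3.33 and 1.68 CPM against 71.5, 50.1 and 71 CPM (log2 fold change 4.41, SE 0.35). GstD5 had 1.07, 1.66 and 0.894 CPM against 18.9, 28.1 and 24.3 CPM (4.32, SE 0.30). Both were low in the hyphenated series, and neither overlapped between series.

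GstD3 had 6.64, 7.41 and 9.66 CPM against 38.1, 30.7 and 42.7 CPM (log2 fold change 2.27, SE 0.20), and GstE7 had 14.2, 16.3 and 13 CPM against 57.5, 72.9 and 88.4 CPM (2.36, SE 0.18). GstE3 and GstE8 were higher by 1.98 and 1.31, and GstD4, GstD9 and GstT4 by 2.15, 1.53 and 0.71. The calls of GstD1, GstD4, GstD9, GstE3, GstE8 and GstT4 were lost when 1 of the libraries was left out.

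Most of these genes lie in a pair of clusters. In the annotation of build BDGP6.54 the 11 GstD genes span 12364776 to 12385624 of chromosome 3R, and 6 of them were called. The 10 GstE genes tested between 18396638 and 18409835 of chromosome 2R gave 4 calls. Within the GstD cluster the called genes were GstD9 and GstD1 to GstD5, which follow each other, while GstD6 had 1.95 (adjusted p = 0.116 from edgeR), GstD7 0.04, GstD8 0.45, GstD10 0.23 and GstD11 0.25. In the GstE cluster called and uncalled genes were interspersed: GstE1, GstE3, GstE7 and GstE8 were called, whereas GstE2 had 0.22, GstE4 0.27, GstE5 1.10, GstE6 0.14 and GstE9 0.87. Neighbours in these clusters are alike in sequence, and the sources used here do not state how reads were split between them.

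Other enzymes that act on foreign compounds were called in smaller shares. Of 81 cytochrome P450 genes 10 were called higher and 1 lower, with a median of 0.17, and with 1 library left out 4 to 15 were higher. Cyp4e3 (FBgn0015035, 2L, 9747839 to 9750071) had 9.3, 7.47 and 9.94 CPM against 340, 147 and 235 CPM, without overlap, and its log2 fold change was 4.80 (SE 0.34, adjusted p = 0.00136 from edgeR). Cyp309a1 had 11.6, 6.99 and 9.73 CPM against 39.2, 31.5 and 35.4 CPM (1.94, SE 0.22). The one P450 gene called lower was Cyp4d1, with 30, 26.2 and 22.7 CPM against 12.4, 12.9 and 8.13 CPM (-1.21, SE 0.23).

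Of 31 UDP-glycosyltransferases 2 were called, both higher, with a median of 0.17 over the family. Ugt37A3 had 5.41, 4.66 and 5.09 CPM against 196, 64.5 and 41.8 CPM (log2 fold change 4.37, SE 0.70, adjusted p = 0.0496 from edgeR). D2Vh1 was the highest library by far, and without it the fold change was 3.42; the call held in 2 of the 6 fits with 1 library left out. Ugt35C1 had 3.08, 3.27 and 2.23 CPM against 19.1, 12.3 and 13.4 CPM (2.42, SE 0.28), again without overlap.

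Of 28 antioxidant genes, whose products remove oxidants or supply glutathione, 2 were called, both higher (7.14%, beside 2.04% of all features). Gclc, which encodes the catalytic subunit of the enzyme that starts glutathione synthesis, had 101, 104 and 92.1 CPM against 146, 205 and 145 CPM (0.77, SE 0.15). The glutathione peroxidase gene Gtpx had 149, 134 and 136 CPM against 233, 195 and 256 CPM (0.74, SE 0.12). The superoxide dismutase gene Sod1 had 345, 303 and 313 CPM against 297, 255 and 296 CPM and was not called (-0.15, adjusted p = 0.695 from edgeR). Catalase (Cat) had a log2 fold change of 0.43 (adjusted p = 0.304 from edgeR), with overlapping libraries, and thioredoxin reductase (Trxr1) 0.42 (adjusted p = 0.092 from edgeR), with unhyphenated libraries above hyphenated ones.

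**Figure D2:**
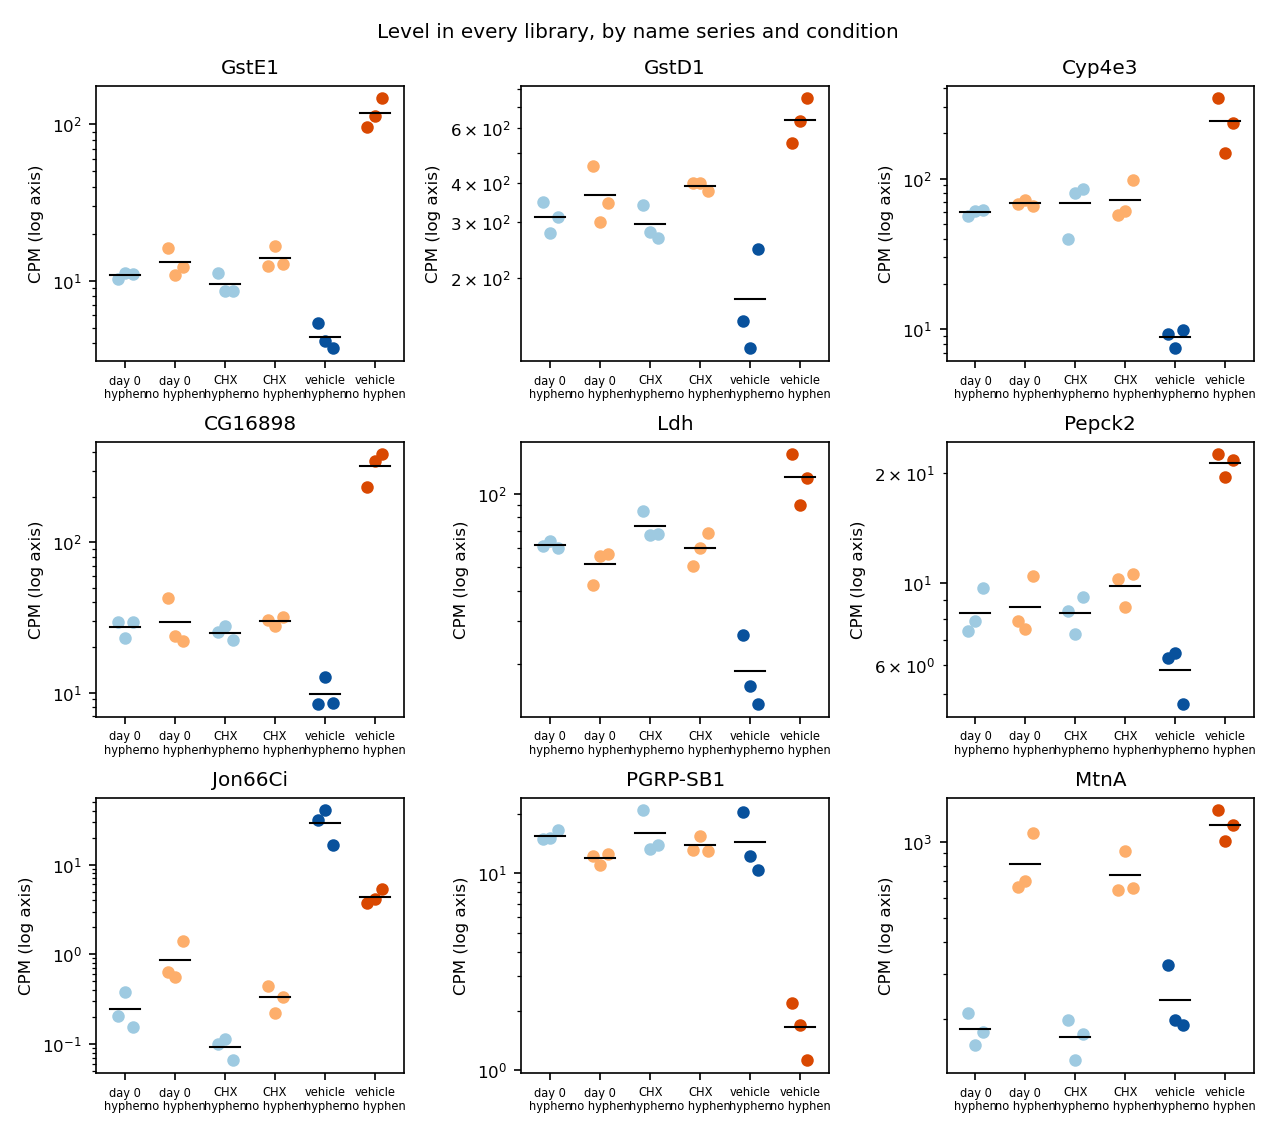
CPM (log axis) of 9 genes in each of the 18 libraries, grouped by condition and name series; each point is a library and each bar the mean of 3. GstE1, Cyp4e3 and CG16898 of the vehicle group part to both sides of the day 0 and CHX libraries, whereas MtnA is higher in the unhyphenated series in all 3 conditions.

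Of the genes with the largest folds, several have no family described here. CG16898 had 8.33, 12.6 and 8.46 CPM against 232, 349 and 385 CPM, the largest log2 fold change among genes of at least 20 CPM (5.07, SE 0.26, adjusted p = 0.000153 from edgeR). CG5966 had 34.2, 40.8 and 40.7 CPM against 234, 203 and 194 CPM (2.49, SE 0.12). CG16758 had 45.7, 66.3 and 42.2 CPM against 272, 277 and 406 CPM (2.66, SE 0.22). In all of these the hyphenated libraries stood close together and far below the unhyphenated ones. The long noncoding RNA lncRNA:CR44138 was higher by 3.97, CG2065 by 3.10 and CG12224 by 2.74 on the log2 scale.

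Of 16 heat shock genes tested edgeR called 2 higher, DESeq2 7 and limma-voom 3, and edgeR called 0 to 5 with 1 library left out. The 2 were Hsp70Aa, with at most 0.13 CPM in the hyphenated libraries and 0.573, 0.982 and 2.2 CPM in the unhyphenated ones, and Hsp70Bc, with at most 0.259 CPM against 1.07, 2.52 and 4.24 CPM. These genes are near-identical copies, so reads may not be assigned to one of them. Hsp68 had 10.3, 6.74 and 4.19 CPM against 17.7, 45.6 and 68.2 CPM, without overlap but with a wide spread, and was not called (2.64, adjusted p = 0.0815 from edgeR). Hsp23, a small heat shock protein gene, had 8.49, 16.6 and 12 CPM against 22.1, 27.3 and 35.8 CPM and was not called either (1.23, adjusted p = 0.0651 from edgeR). Of 16 alternative fits 3 called Hsp68 and 5 called Hsp23, both as higher.

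Genes of amino acid shortage and of the ATF4 response were called in 8 of 25 cases, all higher, with a median of 0.19 over the list and 3 to 7 calls with 1 library left out. The lactate dehydrogenase gene Ldh had 26.4, 16.2 and 13.6 CPM against 145, 89.6 and 116 CPM, without overlap (log2 fold change 2.67, SE 0.31, adjusted p = 0.00753 from edgeR). Nmdmc, which encodes a mitochondrial enzyme of folate metabolism, had 22.7, 21.1 and 21.8 CPM against 115, 76.2 and 157 CPM (2.44, SE 0.24); it overlaps Mst85C on the opposite strand. The phosphoserine phosphatase gene aay, which completes serine synthesis, had 118, 114 and 126 CPM against 411, 381 and 539 CPM (1.93, SE 0.14). For each of these the hyphenated libraries were the low ones and no library overlapped.

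The other called members were Gadd45, a stress response gene, with 22.4, 17.4 and 11.5 CPM against 53.3, 60.2 and 58.7 CPM (1.77, SE 0.24), the transcription factor gene Xrp1 (1.5, SE 0.28), the translation inhibitor gene Thor (1.16, SE 0.18), the pseudokinase gene trbl (0.68, SE 0.10) and scyl, an inhibitor of TOR signaling (0.43, SE 0.08). Leaving out 1 library ended the call of each of these 5 and of Ldh at least once; scyl was not called in any of those 6 fits. A further 2 genes of stress signaling outside the list were also called. Of 16 genes of JNK signaling, damage and apoptosis 3 were called, all higher. Among them Ets21C, a transcription factor gene of the JNK pathway, had 1.52, 0.756 and 1.2 CPM against 6.16, 9.12 and 12.8 CPM (3.04, SE 0.37). Of 11 Turandot and JAK-STAT genes 2 were called, both higher. Among these Socs36E, an inhibitor of JAK-STAT signaling, had 22.4, 13.1 and 8.77 CPM against 42.7, 50.5 and 63.7 CPM (1.84, SE 0.34). Socs36E kept its call in 2 of the 6 fits with 1 library left out.

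Of 34 genes that respond to insulin and starvation edgeR called 6 higher and 0 lower, with a median of 0.21. DESeq2 called 7 higher and 3 lower and limma-voom 6 and 1, and with 1 library left out edgeR called 4 to 7 higher and 0 to 1 lower. Pepck2, an enzyme of glucose synthesis, had 6.26, 6.47 and 4.68 CPM against 22.5, 19.5 and 21.8 CPM, without overlap (1.90, SE 0.20, adjusted p = 0.00392 from edgeR). ImpL2, a secreted protein that binds insulin-like peptides, had 26.3, 30.8 and 30.3 CPM against 99.9, 64.1 and 89.8 CPM (1.58, SE 0.17), and it overlaps CG46460 on the same strand. The lipase gene Lip4 had 27.6, 20.6 and 19.3 CPM against 66.6, 59.9 and 57.8 CPM (1.48, SE 0.18).

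The insulin receptor gene InR had 41.6, 44.4 and 47.7 CPM against 77.3, 81.9 and 82.1 CPM, a narrow spread in both series (0.89, SE 0.09). Thor had 140, 162 and 97.6 CPM against 286, 276 and 310 CPM. The cytokine gene upd2 was the sixth, with at most 0.0648 CPM in the hyphenated libraries and 0.322, 0.786 and 1.06 CPM in the unhyphenated ones, too few reads for a fold change to be given.

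A few more genes, of the TOR response and of autophagy, were called and were picked out after their values had been seen. The other genes of these kinds were not counted. REPTOR, a transcription factor gene that acts when TOR is low, had 62.6, 61.3 and 64.4 CPM against 93, 111 and 97.6 CPM (0.71, SE 0.10). The autophagy genes Atg8a and ref(2)P had log2 fold changes of 0.71 (SE 0.10) and 1.00 (SE 0.10), with 367, 363 and 343 CPM against 634, 728 and 738 CPM for ref(2)P. All unhyphenated libraries were the higher ones in these 3 genes.

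Of 25 genes of fat synthesis and storage 3 were called higher and 0 lower, around a median of -0.09. Dgat2, which makes triglyceride, had 3.08, 1.66 and 1.62 CPM against 21.9, 9.15 and 8.9 CPM (2.68, SE 0.46). The lipid droplet protein gene Lsd-1 had 135, 109 and 86.7 CPM against 243, 226 and 213 CPM (1.07, SE 0.17; CG10214 overlaps it on the opposite strand). The gene whd, whose enzyme takes fatty acids into mitochondria, had 148, 159 and 150 CPM against 210, 222 and 202 CPM (0.51, SE 0.09). The series did not overlap in any of these 3, and each call was lost without at least 1 library. In amino acid breakdown hgo, of the tyrosine pathway, was higher (1.25, SE 0.25) and Oat, ornithine aminotransferase, was lower (-0.92, SE 0.17), the 2 calls among 18 genes.

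Gut genes were called in both directions. Of 32 digestive serine proteases 3 were called lower and 0 higher (9.38% called, beside 2.04% of all features), and the median was -0.82. The unhyphenated libraries lay below the hyphenated ones in 14 of the 32 and above them in 0, beside 10.7% and 8.6% of all features. With 1 library left out 0 to 8 were called lower. Jon66Ci (FBgn0035886, 3L, 8391540 to 8392377) had 31.4, 40 and 16.5 CPM against 3.76, 4.12 and 5.3 CPM, without overlap (-2.71, SE 0.34, adjusted p = 0.00682 from edgeR). Jon99Fii had 283, 258 and 118 CPM against 40.3, 46.9 and 27.7 CPM (-2.50, SE 0.39), and Ser8 had 14, 12.5 and 12.2 CPM against 1.72, 1.23 and 0.487 CPM (-3.46, SE 0.42). Proteases of the Jonah family are alike in sequence, so the split of reads among them is uncertain.

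The summed level of all digestive serine proteases was 15980, 9349 and 6050 CPM in the hyphenated and 5836, 5736 and 4321 CPM in the unhyphenated vehicle libraries. D2Vh-3 was close to the unhyphenated libraries and D2Vh-1 far above them. In whole flies, fewer gut cells and less RNA per gut cell cannot be told apart. Starch and sugar enzymes had a median above 0. Of 14 amylase and maltase genes 1 was called (7.14%, beside 2.04% of all features), and the median was 1.12. The unhyphenated libraries lay above the hyphenated ones in 5 of the 14 and below them in 1, beside 8.6% and 10.7% of all features. The sums were 1316, 793 and 1555 CPM against 2786, 1715 and 2012 CPM. The called gene was the maltase gene Mal-B2, with 63.1, 60.4 and 53.9 CPM against 121, 131 and 134 CPM (1.15, SE 0.11, adjusted p = 0.00185 from edgeR).

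Of 19 gut lysozyme, mannosidase and lipase genes 1 was higher, Lip4, and 1 lower, Acbp3, an acyl-CoA binding protein gene, with 64.6, 58.7 and 42.1 CPM against 16, 11.7 and 14.8 CPM (-1.93, SE 0.21). Of 23 genes that mark gut cell types and gut peptides 0 were called with edgeR, DESeq2 or limma-voom, 5 had an unadjusted p under 0.05, and 0 to 1 were called with 1 library left out. Their summed levels overlapped, with 2396, 2135 and 2074 CPM against 2210, 2210 and 1987 CPM. Of 20 genes of the peritrophic matrix, the lining of the midgut, 0 were called with edgeR (median -0.50) and 0 with limma-voom, 9 had an unadjusted p under 0.05, and DESeq2 called 1 higher and 2 lower.

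Immune genes were called in both directions. Of 20 genes of immune recognition and signaling 3 were lower and 1 was higher, with a median of 0.14. PGRP-SB1, which encodes an amidase that cuts peptidoglycan, had 20.6, 12.2 and 10.5 CPM against 2.2, 1.68 and 1.12 CPM (-3.10, SE 0.38). PGRP-SC2, another amidase gene, had 80.6, 64.1 and 44.1 CPM against 26.5, 19.1 and 13.1 CPM (-1.65, SE 0.32), and the recognition protein gene PGRP-SD had 17.6, 11.2 and 10.7 CPM against 4.05, 4.88 and 4.38 CPM (-1.54, SE 0.26). Their unhyphenated libraries were the low ones without exception. With 1 library left out PGRP-SB1 kept its call in 5 of 6 fits, and PGRP-SC2 and PGRP-SD in 2 each. Of the 20 genes 0 to 3 were called lower in those fits. PGRP-SC2 was called under 1 of the 3 other scalings.

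Rel, the NF-κB factor gene of the Imd pathway, had 92.8, 88.3 and 81.2 CPM against 127, 144 and 155 CPM and was higher (0.73, SE 0.11). Of 27 immune peptide genes Mtk was lower, with 6.22, 5.29 and 1.51 CPM against 0.107, 0.168 and 0.544 CPM, and Listericin was higher (1.33, SE 0.26). The median of the 27 was 0.39, and 14 had an unadjusted p under 0.05. DESeq2 called 7 higher and 2 lower, limma-voom 1 and 0. With 1 library left out Mtk kept its call in 2 of 6 fits and Listericin in 1. Mtk had -3.93 (SE 0.72, adjusted p = 0.0383 from edgeR) with all 6 libraries and -4.88 without D2Vh3. PGRP-SC2 has near-identical neighbours, and CG7492 overlaps PGRP-SD on the opposite strand.

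**Figure D3:**
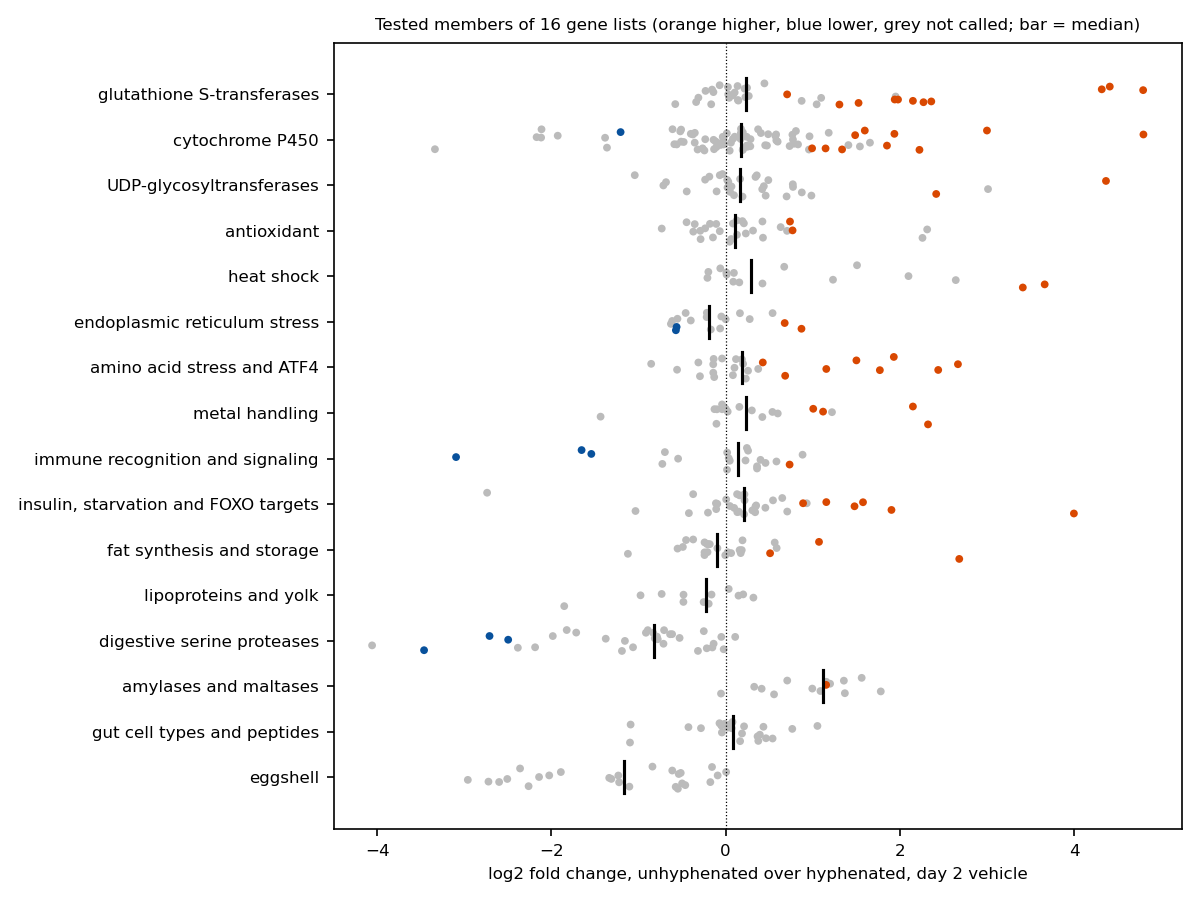
Log2 fold change (unhyphenated over hyphenated, vehicle libraries) of each tested member of 16 gene lists; orange points were called higher, blue lower, grey not called, and the bar is the list's median. Glutathione S-transferases hold 11 orange points, the ATF4 list 8 and the insulin and starvation list 6, while digestive serine proteases (median -0.82) and eggshell genes (-1.16) lie mostly to the left.

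The lowest genes outside these lists were Obp99a, an odorant-binding protein gene, with 150, 83.5 and 102 CPM against 15.2, 22.4 and 13.6 CPM (-2.68, SE 0.28, adjusted p = 0.00466 from edgeR), and CG31041, with 39.5, 26 and 15.8 CPM against 5.84, 5.02 and 3.03 CPM (-2.52, SE 0.40). Nplp2, a neuropeptide-like precursor gene and the most abundant of the genes named as lower, had 1056, 980 and 656 CPM against 344, 380 and 237 CPM (-1.45, SE 0.24). All hyphenated libraries were above all unhyphenated ones in these genes. CG13947, CG5910 and Eglp4 were lower by log2 fold changes of -1.45, -1.39 and -1.32, and Obp56g had -1.32.

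A further 6 genes called lower belong to the machinery that moves new proteins into the endoplasmic reticulum; they were picked out because they were called, and the other members of that machinery were not counted. Sec61alpha, the pore of the translocon, had 410, 367 and 321 CPM against 212, 237 and 233 CPM (-0.66, SE 0.12), and its partner Sec61beta had 146, 152 and 134 CPM against 86, 79.6 and 93.2 CPM (-0.70, SE 0.11). SsRbeta and Tapdelta, of the complex beside the translocon, had -0.70 and -0.66, TRAM had -0.83 and the signal peptidase gene Spase25 -0.56. Of the 18 genes on the list of endoplasmic reticulum stress the chaperone genes Calr (-0.56, SE 0.10) and ERp60 (-0.57, SE 0.11) were lower, and the sensor gene Ire1 (0.68, SE 0.12) and the exchange factor gene Sil1 (0.87, SE 0.16) were higher. Every one of these 10 calls was lost without at least 1 library.

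Of 82 cytosolic ribosomal protein genes 0 were called with edgeR, DESeq2 or limma-voom (median -0.05), and 1 had an unadjusted p under 0.05. The same 3 tools called 0 of 33 proteasome and 0 of 27 cell cycle genes, of which 1 and 0 had an unadjusted p under 0.05. Of 66 nuclear oxidative phosphorylation genes 0 were called with edgeR or limma-voom and 1 with DESeq2, lower, while 14 had an unadjusted p under 0.05 and their median was -0.18. The unhyphenated libraries lay below the hyphenated ones in 50 of these 66 genes and above them in 0, beside 10.7% and 8.6% of all features. The sums over all 88 listed genes, tested or not, were 13090, 12232 and 12102 CPM against 10809, 10200 and 10806 CPM. RpL32 had 788, 829 and 862 CPM against 842, 671 and 811 CPM (-0.06, SE 0.11), with overlapping series, and its sign turned to 0.04 without D2Vh2. Of 30 ribosome biogenesis genes Non1 was higher (0.57, SE 0.11) and NHP2 lower (-0.52, SE 0.10). The median of the 30 was -0.16, and 10 had an unadjusted p under 0.05. The unhyphenated libraries lay below the hyphenated ones in 14 of them and above in 2, beside 10.7% and 8.6% of all features. DESeq2 called 1 higher and 2 lower, limma-voom 1 and 1.

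Lipid carriers, yolk proteins and eggshell genes gave no call with edgeR. Spreads could be wide in both series: for apolpp the standard deviation was 1067 CPM around a hyphenated mean of 2487 CPM. In the unhyphenated series it was 445 CPM around 676 CPM. Of 12 lipoprotein and yolk genes 0 were called with edgeR or limma-voom (median -0.22), DESeq2 called 2 lower, and 5 had an unadjusted p under 0.05. Of 26 eggshell genes edgeR called 0 (median -1.16), limma-voom 1 and DESeq2 4, all lower, and 5 had an unadjusted p under 0.05. The unhyphenated libraries lay below the hyphenated ones in 9 of these 26 and in 4 of the 12 lipoprotein and yolk genes. They lay above them in 0 of either list, beside 10.7% below and 8.6% above for all features. The lipoprotein gene apolpp had 3663, 2218 and 1581 CPM against 595, 1156 and 277 CPM, without overlap (-1.85, SE 0.62, adjusted p = 0.304 from edgeR), and it overlaps Zyx on the opposite strand. The yolk protein genes Yp1 and Yp2 had -0.48 (adjusted p = 0.284 from edgeR) and -0.98 (adjusted p = 0.158 from edgeR); for Yp2 the levels were 10118, 7226 and 5805 CPM against 3608, 4925 and 2998 CPM.

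The sums of some lists of tissue markers did not overlap between the series, and those of others did. Summed eggshell RNA was 17648, 18993 and 8345 CPM against 7327, 7125 and 6770 CPM, and summed lipoprotein and yolk RNA 31647, 22929 and 18580 CPM against 12667, 17514 and 11156 CPM. D2Vh-3 was the hyphenated library nearest to the unhyphenated ones in both sums. Of 27 germline and maternal genes tested 0 were called with edgeR, DESeq2 or limma-voom (median -0.07). Sums over the 28 listed overlapped, with 4028, 4700 and 5258 CPM against 4246, 4381 and 4573 CPM. Of 5 storage and fat body genes tested the same tools called 0 (median -0.10), and sums over the 10 listed overlapped. Of 18 Malpighian tubule, hemocyte and trachea genes edgeR and limma-voom called 0 and DESeq2 2, both higher, with overlapping sums. Summed RNA of 23 muscle genes, of which edgeR, DESeq2 and limma-voom called 0 and 3 had an unadjusted p under 0.05, overlapped between the series (4483, 3226 and 3030 CPM against 3779, 4391 and 3292 CPM), and their median log2 fold change was 0.09; Strn-Mlck, a muscle kinase gene, had 0.25 (adjusted p = 0.75 from edgeR). Of 24 neuron and photoreceptor genes edgeR and limma-voom called 0 and DESeq2 2, both higher, and 4 had an unadjusted p under 0.05; the log2 fold changes ran from 0.04 to 0.60 with a median of 0.39, and the sums overlapped (2620, 1962 and 1653 CPM against 2532, 2895 and 2053 CPM). Of 5 male reproductive genes tested 1 was called lower, Obp56g. The sums over all 28 listed genes, tested or not, were 158, 119 and 102 CPM against 73.2, 93.2 and 47.9 CPM, without overlap. The part of the amount of gut, ovary, fat body, nerve or male reproductive RNA in the differences above was not tested. The muscle sums of the day 0 and CHX libraries were 88448 to 109801 CPM and their eggshell sums at most 445 CPM, so all 6 vehicle libraries stood apart from the other 12 in both.

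**Figure D4:**
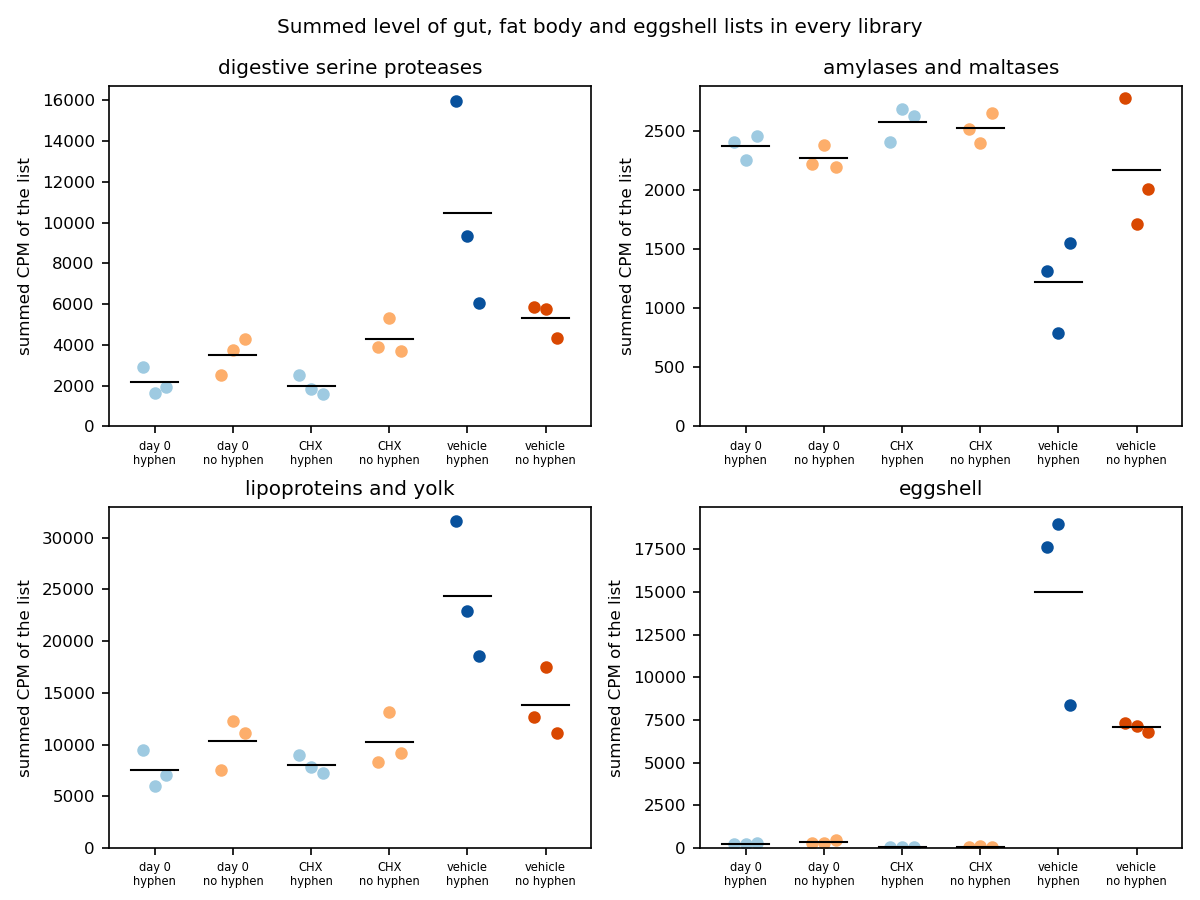
Summed CPM (linear axis from 0) of 4 gene lists in each of the 18 libraries, by condition and name series; points are libraries and bars the means of 3. In the vehicle group the hyphenated libraries reach 15980 CPM for digestive serine proteases and 18993 CPM for eggshell genes, and D2Vh-3 is the hyphenated library nearest to the unhyphenated ones in all 4 sums.

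The same name series exist at day 0 and with CHX, which allows the difference to be read there. At day 0 55 of 11547 features were called between the series (0.476%), and with CHX 32 (0.277%). Both counts come from the fit of all 18 libraries, in which the vehicle contrast gave 699 calls. The 212 calls come from a separate fit of the 6 vehicle libraries and are not on the same footing. The 169 genes higher in vehicle had a median log2 fold change of 1.53 in vehicle, 0.09 at day 0 and 0.16 with CHX. The 43 lower genes had -1.45, 0.09 and 0.29. A test of the difference itself, in 1 fit over all 18 libraries, called 381 features for vehicle against day 0 (3.3%) and 395 for vehicle against CHX (3.42%). Of the 169 higher genes 107 and 103 were called in these tests, 93 in both, and of the 43 lower genes 29 and 38, 28 in both. These genes were picked in the vehicle libraries, which both tests share, so the medians and counts describe them and are no further support.

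**Figure D5:**
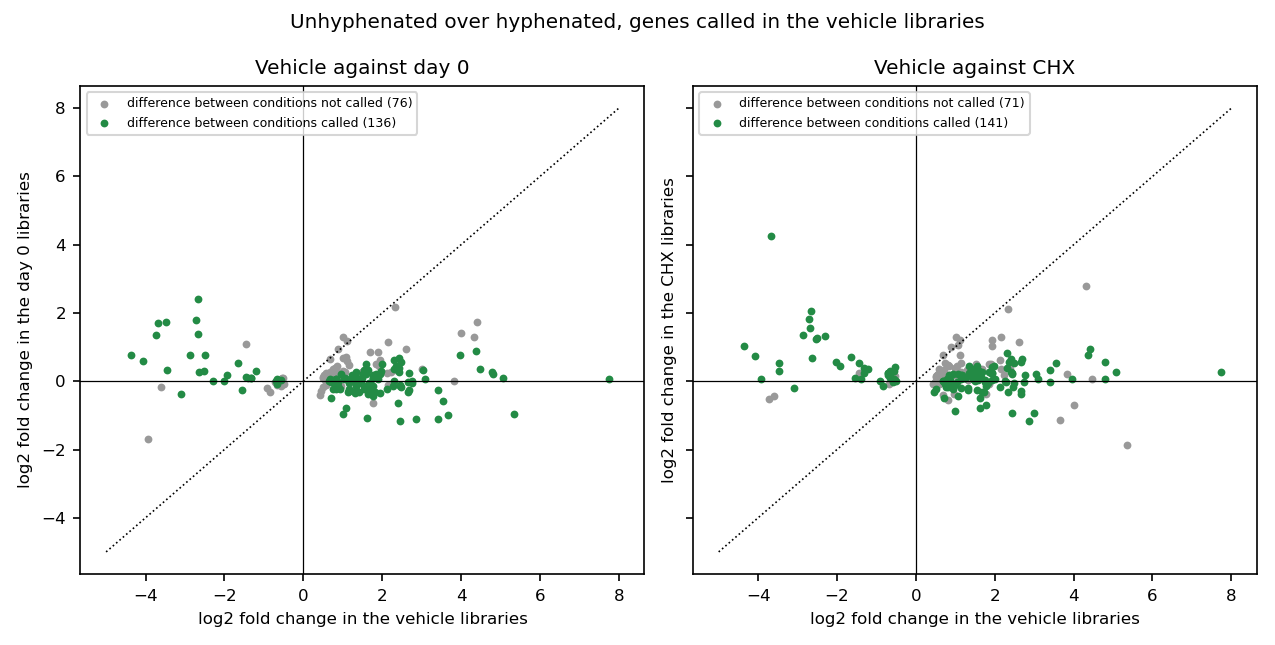
Log2 fold change between the name series at day 0 (left) and with CHX (right) against that in the vehicle libraries, for the 212 genes called there; the dotted line marks equal values. Green points, 136 on the left and 141 on the right, were called in the test of the difference between conditions, and most points lie near 0 on the vertical axis.

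Between the name series 5 genes were called in all 3 conditions. MtnA, a metallothionein gene that binds metals, had 325, 197 and 189 CPM against 1326, 1007 and 1159 CPM in vehicle, with log2 fold changes of 2.32 there, 2.16 at day 0 and 2.13 with CHX. The ferritin subunit genes Fer1HCH and Fer2LCH, which store iron and overlap each other on opposite strands, had 1.12, 1.17 and 1.19 and 1.01, 1.29 and 1.30. The gene salt had 0.89, 0.94 and 0.99. The differences of MtnA, Fer1HCH, Fer2LCH and salt between vehicle and the other conditions were not called, with log2 values between -0.32 and 0.16. Sclp was higher in vehicle (0.99) and lower at day 0 (-0.95) and with CHX (-0.86).

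Of 18 genes of metal handling these 3 and MtnD (2.15, SE 0.35) were called in vehicle. MtnD had 9.59, 11.3 and 4.5 CPM against 45.4, 34.9 and 30.1 CPM. Drat was higher in vehicle, with 50.8, 49.2 and 47.6 CPM against 132, 142 and 168 CPM (1.62, SE 0.11), while it had -1.08 at day 0 and -0.80 with CHX. Lsd-1 likewise had 1.07 in vehicle and -0.79 and -0.43 in the other conditions. For both, the tests of the difference were called against day 0 and against CHX.

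Levels at day 0 and with CHX place the vehicle libraries. Among the 169 higher genes the unhyphenated vehicle libraries were above all 12 others in 88 and the hyphenated ones below all 12 in 95, with both in 24. GstE1, Cyp4e3 and CG16898 are of this last kind: Cyp4e3 ran from 56.8 to 72 CPM at day 0 and from 39.9 to 97.7 CPM with CHX, and CG16898 from 22.1 to 42.6 and from 22.3 to 31.8 CPM. For Ugt35C1 the unhyphenated libraries lay near the others (12.8 to 23.7 CPM at day 0) and the hyphenated ones below them. Among the 43 lower genes the unhyphenated libraries were below all 12 in 29, as for PGRP-SB1, and the hyphenated ones above all 12 in 11, as for Jon66Ci, which had at most 1.42 CPM at day 0. Both held in 2 of the 43. Over all features tested the unhyphenated vehicle libraries were above the 12 in 3900 and below them in 3249, and the hyphenated ones above them in 3967 and below them in 3291, so such positions are common here. The share of all features with both positions at once was not counted, so the 24 genes have no such share beside them.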

How the data were processed

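The deposited table holds whole-number counts of reads per feature, which the authors made from total RNA of whole flies; the submitters' processing notes name the build BDGP6, the aligner STAR (2.7.10a), the counter HTSeq (0.12.3) and bcl2fastq (2.18.0.12), with settings, annotation and strand not given in the sources used here. The 5 HTSeq summary entries (9.49% to 11.4% of reads per vehicle library) were left out. Of 23932 features, 10406 passed edgeR's filterByExpr in the 6 vehicle libraries and were tested with edgeR 4.0.16 (TMM factors, robust quasi-likelihood F test, Benjamini-Hochberg adjustment, threshold 0.05) in R 4.3.3. Day 0, CHX and the differences between conditions came from 1 fit of the 18 libraries in 6 groups. The code was tested on simulated data.

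Groups follow the names in the labels. Features were matched to the Ensembl annotation, release 115, of BDGP6.54 for names and coordinates. The members, the 41 gene lists and the tests were chosen with earlier results of these data known. Named genes were, by rule, the 12 highest and 12 lowest called genes of at least 20 CPM without overlap, up to 4 called per list, and the genes the study measured by qRT-PCR where tested; others are genes of the same lists or are said to be picked later. Alternatives were other scaling factors (RLE, upper quartile, library sizes), DESeq2 1.42.0, limma-voom (limma 3.58.1), other count filters, a replicate block, leaving out the 20 most abundant features, a 2-fold minimum, all 18 libraries and each library left out. Python 3.11.15 and matplotlib 3.10.9 drew the figures. Any 2 vehicle libraries differed by at least 41.5 times counting noise (chi-square per degree of freedom), so none was a second deposit of the same library; repeat preparations of 1 RNA would not show in this check.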

Additional observations from a re-analysis of the deposited data

Results flagged for a closer look

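The difference between the name series was not the same in all conditions. A test of the difference itself (edgeR's quasi-likelihood test, Benjamini-Hochberg adjustment) was past the threshold for 381 features between vehicle and day 0 (3.3% of those tested) and for 395 between vehicle and CHX (3.42%). Of the 96 genes named above 58 were called against day 0 and 64 against CHX, 54 of them in both. Of the 96, 86 had been called in the vehicle libraries, and these libraries enter both tests. The counts and values therefore describe the named genes and are no further support. Each value that follows is the log2 difference in vehicle minus the log2 difference at day 0, from 3 libraries in each of 4 groups.

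Among enzymes of detoxification the values were GstE1 4.49, GstD1 1.67, GstD3 2.38, GstD9 1.21, GstE3 1.67, GstE7 1.88, GstE8 1.16, Cyp4e3 4.56, Cyp309a1 1.68, Cyp4d1 -1.56, Ugt37A3 3.44 and Ugt35C1 1.98. Among genes of stress they were Hsp68 3.43, Hsp70Aa 4.63, Hsp70Bc 4.49, Ldh 2.90, Nmdmc 2.54, aay 1.68, Gadd45 1.57, Xrp1 1.28, Ets21C 2.68 and ERp60 -0.64. Hsp70Aa had at most 0.13 CPM and Hsp70Bc at most 0.259 CPM in the hyphenated vehicle libraries, too few reads for the size of their values to be read, since it depends on the prior count of the fit. Genes of nutrient state and fat had Pepck2 1.82, ImpL2 1.75, Lip4 1.36, InR 0.99, REPTOR 1.18, Dgat2 2.39, Lsd-1 1.84, hgo 1.21 and apolpp -3.17.

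In the gut group the test gave Jon66Ci -4.52, Jon99Fii -3.30, Ser8 -3.83, Mal-B2 1.18 and Acbp3 -2.15, and among immune genes PGRP-SB1 -2.75, PGRP-SC2 -2.23, PGRP-SD -1.31, Rel 0.71 and Listericin 1.56. Genes of protein entry into the endoplasmic reticulum had Sec61alpha -0.70, SsRbeta -0.74 and Tapdelta -0.77. The other named genes called against day 0 were CG16898 4.93, lncRNA:CR44138 3.15, CG2065 3.01, CG12224 2.77, CG16758 2.65, CG5966 1.88, Obp99a -4.11, CG31041 -2.87, Nplp2 -1.62, CG5910 -1.53, Eglp4 -1.44, Obp56g -1.46, Sclp 1.90 and Drat 2.66.

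Another 10 named genes were called against CHX and not against day 0, with the following log2 differences in vehicle minus that with CHX: GstD2 3.44, Oat -0.96, Gclc 0.77, Sil1 0.80, Calr -0.65, Mtk -3.99, trbl 0.64, Sec61beta -0.98, TRAM -0.72 and Spase25 -0.90. For Hsp68 (2.64, adjusted p = 0.0815 from edgeR) and apolpp (-1.85, adjusted p = 0.304 from edgeR) the difference between conditions was called although the difference within the vehicle libraries was not. The test between conditions took its spread from all 18 libraries, the test within vehicle from the 6 vehicle libraries. In the fit of all 18 the vehicle contrast itself gave 699 calls in place of 212, so these outcomes are not on a like footing.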

How the results depend on the processing

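The count of 212 genes called in the vehicle libraries was 197 with RLE factors, 169 with upper quartile factors, 272 with library sizes only, 209 with limma-voom, 175 with at least 10 counts in every library, 213 without the 20 most abundant features and 269 without a filter (66 lower in place of 43). DESeq2 called 588 (374 higher and 214 lower), among them all 212, and all 18 libraries in 1 fit 699 (388 and 311), among them 203. With a 2-fold minimum 27 lower genes were left. With the name number as a replicate block 375 were called, 133 of them lower and 207 shared with the 212. Same-numbered libraries had correlations of 0.0035, -0.048 and 0.50 between their deviations from the series means, D2Vh-1 and D2Vh-2 correlated better with another number than with their own, and the numbers were not taken as pairs. Leaving out 1 library gave 58 to 343 calls, 52 to 293 higher and 4 to 98 lower; the cause was not tested.

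At day 0 the 55 calls became 201 with DESeq2, 104 with limma-voom and 33 with at least 10 counts, and 8 to 114 with 1 library left out. With CHX the 32 became 16 with upper quartile factors, 164 with DESeq2 and 15 with at least 10 counts, and 3 to 541, the most without D2Cx-1. The difference between vehicle and day 0 had 656 calls with DESeq2 and 213 to 516 with 1 library left out, and that between vehicle and CHX 685 and 222 to 1053. Of the 86 called genes named above 66 kept the call under all 3 other scalings. Of 1530 log2 fold changes of named genes in the alternatives 1261 kept their sign and call, 253 lost the call, 15 gained one and 1 turned sign (RpL32, -0.14 to 0.040 with 1 library left out). With 3 libraries a series and levels under 1 CPM, as for upd2 and Hsp70Aa, the counts limit what could be seen.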
